A study of Mus musculus with 6 samples.

Results

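Eph receptors are receptor tyrosine kinases, and 10 of their genes were followed here in mouse cerebral cortex: Epha3, Epha4, Epha5, Epha6, Epha7, Epha8, Epha10, Ephb1, Ephb2 and Ephb6. They were taken by gene symbol from a count table of 33274 gene rows, and each symbol had 1 row. The set was selected on expression values of this same comparison, the higher Epha6 counts of the methylphenidate lineage being known, so the differences between lineages in these 10 genes are given as a description, without a test. RNA-seq was done on the cortex of 6 wild type mice of the outbred ICR stock, all female and 6 weeks old. Their grandsires had received methylphenidate at 15 mg/kg (3 libraries) or saline at 10 mL/kg (3 libraries) under the skin for 21 days. Methylphenidate blocks the transporters that take up dopamine and noradrenaline. The dosed males, and then their sons, were mated with females that received no drug, so none of the sequenced animals was dosed. One male of each litter was picked at random as sire of the next generation, and the labels do not say which of the 6 animals share a litter or a sire.

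Eph receptors bind ephrins, which are tethered to the surface of neighbouring cells, so that signalling needs contact between cells and can run in both directions. EphA receptors mostly bind ephrin-A proteins, held by a lipid anchor, and EphB receptors mostly bind ephrin-B proteins, which cross the membrane. In the developing brain graded Eph and ephrin expression guides axons and keeps cell groups apart, and in the mature cortex the same proteins act at dendritic spines and synapses.

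The libraries held 23896752 to 28120640 counts. Levels are given as CPM, read counts scaled to the TMM-adjusted library size. A count of 0 allows up to 3 counts, or 0.106 to 0.124 CPM in a library, and all 10 receptors lay well above this, with at least 135 counts in each library. The labelled tissue matched its markers: Slc17a7, the vesicular glutamate transporter of cortical excitatory neurons, lay between 1022 and 1251 CPM, and Tbr1, a cortical transcription factor, between 104 and 168 CPM. The samples are bulk tissue, so fewer cells of a type and less RNA per cell cannot be told apart.

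Epha6, an EphA receptor of the nervous system, had 294, 278 and 191 counts in saline replicates 1 to 3 and 423, 618 and 539 counts in methylphenidate replicates 1 to 3. In CPM these were 11.2, 10.9 and 7.91 in the saline lineage and 17.5, 21.7 and 22.2 in the methylphenidate lineage. Each methylphenidate library was above each saline library, and saline replicate 3 was the lowest of the 6. The means were 10.00 ± 1.82 and 20.5 ± 2.57 CPM (SD, n = 3 per group), a log2 fold change of 1.04 (SE 0.16, methylphenidate minus saline). The log2 fold change lay between 0.89 and 1.13 in every fit that left out 1 library. Within the same libraries, the ratio of Epha6 to Epha3 counts was 1.43, 1.07 and 0.715 in the saline lineage. In the methylphenidate lineage it was 1.63, 2.13 and 2.41, without overlap. The ratio uses the same Epha6 values, so it is no separate observation of the difference.

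The receptor genes with non-overlapping lineages were 3 of the 10: Epha6, which was higher with methylphenidate, and Epha4 and Ephb6, which were lower. Over all 18327 genes tested the lineages did not overlap in 13.5%, higher in 6.97% and lower in 6.51%. Since the receptors were picked with this contrast known, nothing is read from their share. The 250 bases before the transcription start of these 3 genes are printed because they are the receptors whose values separated the lineages. They are from RefSeq on GRCm38.p6, 5′ to 3′ on the strand of the gene, with each CG dinucleotide in capitals. The windows are chr16:60605532-60605781 on the minus strand for Epha6, chr1:77515089-77515338 on the minus strand for Epha4 and chr6:41605261-41605510 on the plus strand for Ephb6.
Epha6: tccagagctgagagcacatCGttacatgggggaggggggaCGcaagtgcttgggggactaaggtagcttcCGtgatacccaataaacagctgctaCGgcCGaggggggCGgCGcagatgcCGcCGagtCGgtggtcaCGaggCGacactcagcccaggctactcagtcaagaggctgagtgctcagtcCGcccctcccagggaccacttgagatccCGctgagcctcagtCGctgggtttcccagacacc
Epha4: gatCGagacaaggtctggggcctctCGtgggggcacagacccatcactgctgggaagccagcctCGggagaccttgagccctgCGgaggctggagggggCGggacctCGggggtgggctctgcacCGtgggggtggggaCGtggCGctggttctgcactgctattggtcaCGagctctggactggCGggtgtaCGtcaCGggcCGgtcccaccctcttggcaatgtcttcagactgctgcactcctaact
Ephb6: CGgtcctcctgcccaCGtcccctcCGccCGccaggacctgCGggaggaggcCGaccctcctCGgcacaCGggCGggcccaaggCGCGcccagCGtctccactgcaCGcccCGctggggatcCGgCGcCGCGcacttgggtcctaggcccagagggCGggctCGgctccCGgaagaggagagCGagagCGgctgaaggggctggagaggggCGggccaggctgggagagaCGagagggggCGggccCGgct

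The Epha6 window had 62.8% G and C and 15 CG dinucleotides, the Epha4 window 66.0% and 14, and the Ephb6 window 76.8% and 27. The median over 32851 RefSeq promoters of the same length was 52.4% and 6. All 10 receptors matched a RefSeq start, with 11 starts in all since Epha7 has 2, and their CG counts ran from 10 in Ephb1 to 46 in Epha8. The 2 windows of Epha7 share most of their bases, so they are not separate sequences in the counts below. The GC box GGGCGG, searched on both strands, was in 8 of the 11 receptor windows and in 32.7% of all promoters, with 2 matches in Epha6, 1 in Epha4 and 5 in Ephb6. The E-box CAGCTG was in 2 of the 11 windows, those of Epha6 and Epha10, and in 13.0% of all promoters. TATAAA, searched on both strands, was in 0 of the 11 windows and in 12.4% of all promoters. These matches describe the letters of the windows, and no binding or methylation was measured.

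The other 6 EphA receptors had log2 fold changes between -0.21 and 0.20. Epha4, a receptor of cortical neurons that takes part in axon guidance and in spine shape, had 219, 243 and 213 CPM in saline replicates 1 to 3 and 193, 205 and 184 CPM in methylphenidate replicates 1 to 3. All 3 methylphenidate libraries were below the saline libraries, and the log2 fold change was -0.21 (SE 0.07).

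Epha5, a receptor of forebrain neurons, had 108, 132 and 116 CPM in the saline lineage and 121, 138 and 119 CPM in the methylphenidate lineage, which overlapped. Its log2 fold change was 0.08 (SE 0.09). Epha7, expressed in graded fashion in the developing cortex, had 46.4, 65.1 and 60.1 CPM in the saline lineage and 60.5, 52.9 and 62.7 CPM in the methylphenidate lineage. The methylphenidate values lay inside the saline range, with a log2 fold change of 0.04 (SE 0.12). Epha3 had 7.81, 10.2 and 11.1 CPM in the saline lineage and 10.7, 10.2 and 9.24 CPM in the methylphenidate lineage. These also lay inside the saline range, with a log2 fold change of 0.05 (SE 0.16).

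Epha10, a family member whose kinase domain lacks residues needed for catalysis, had 47.2, 40.8 and 49.8 CPM in the saline lineage and 54.1, 49.3 and 54.5 CPM in the methylphenidate lineage. Methylphenidate replicate 2 lay just under saline replicate 3, so the lineages overlapped, and the log2 fold change was 0.20 (SE 0.09). Epha8, a receptor of the midbrain tectum, had 13.0, 8.68 and 7.20 CPM in the saline lineage and 5.60, 13.2 and 9.89 CPM in the methylphenidate lineage. Both its highest and its lowest library were of the methylphenidate lineage, and the log2 fold change was -0.01 (SE 0.31).

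The 3 EphB receptors all had log2 fold changes below 0. Ephb6, whose kinase domain is also catalytically inactive, had 139, 174 and 147 CPM in the saline lineage and 132, 139 and 114 CPM in the methylphenidate lineage. The lineages did not overlap, but methylphenidate replicate 2, at 138.6 CPM, was only just below saline replicate 1, at 139.5 CPM. Its log2 fold change was -0.26 (SE 0.10).

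Ephb2, which binds NMDA receptors at excitatory synapses, had 27.4, 25.0 and 23.1 CPM in the saline lineage and 22.7, 23.7 and 20.6 CPM in the methylphenidate lineage. Methylphenidate replicate 2 lay inside the saline range, and the log2 fold change was -0.17 (SE 0.10). Ephb1, which turns retinal axons to the same side of the brain at the optic chiasm, had 40.7, 31.4 and 43.2 CPM in the saline lineage and 38.4, 36.5 and 35.1 CPM in the methylphenidate lineage. The methylphenidate values lay inside the saline range, with a log2 fold change of -0.07 (SE 0.12).

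**Figure D1:**
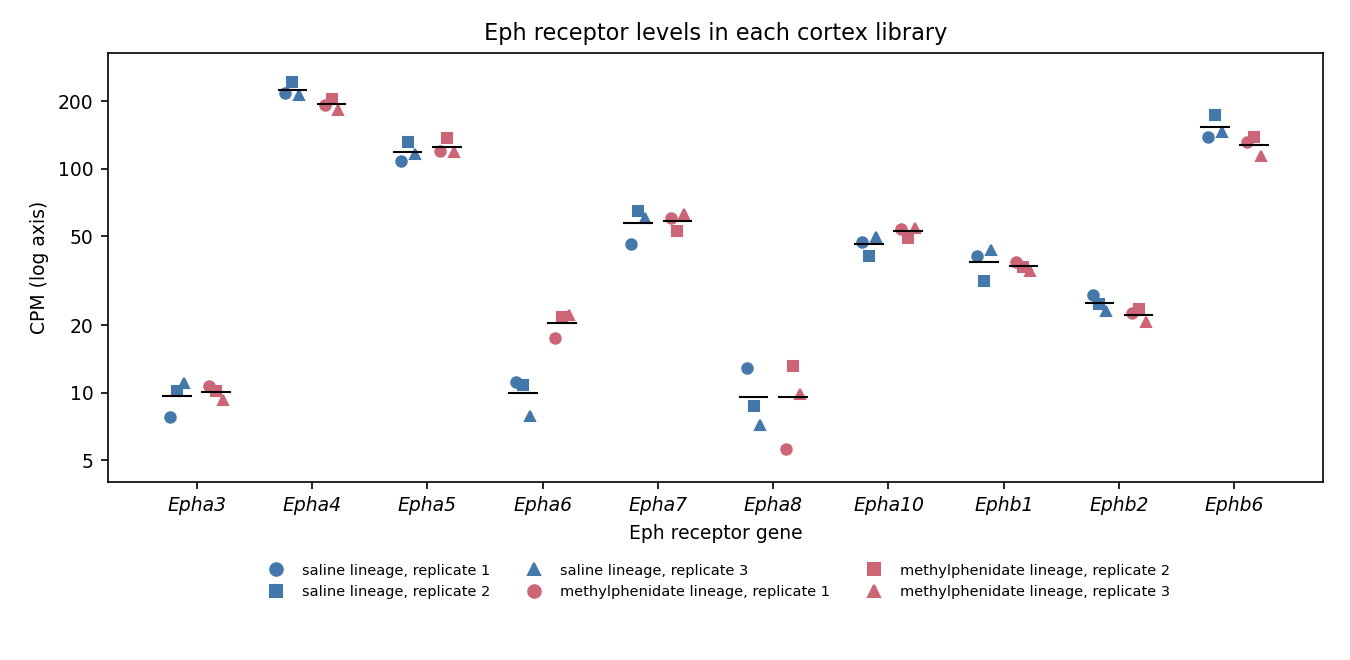
Level of each of the 10 Eph receptor genes in CPM (log axis) in the 6 cortex libraries, with blue symbols for the saline lineage, red symbols for the methylphenidate lineage and black lines for the mean of 3 libraries. Epha6 lies at 7.91 to 11.2 CPM in the saline lineage and 17.5 to 22.2 CPM in the methylphenidate lineage, and Epha8 is spread from 5.60 to 13.2 CPM within the methylphenidate lineage.

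Across the 10 receptors, 5 log2 fold changes were above 0 and 5 below, with a median of 0.02, beside 0.00 over all 18327 genes tested. The second highest was that of Epha10 at 0.20, and the lowest was that of Ephb6 at -0.26. edgeR's quasi-likelihood test with Benjamini-Hochberg adjustment at 0.05 called 0 of the 10 receptors, beside 0.0273% of all genes tested. At an unadjusted edgeR p under 0.05 there were 3 receptors, Epha6, Epha4 and Ephb6, beside 7.51% of all genes tested. DESeq2, a tool with another estimate of the spread, called 1 receptor, Epha6, beside 0.650% of 22937 genes with an adjusted p. The rule used this contrast, so nothing is read from these counts.

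The receptors differed in how steady they were between animals of one lineage. The within-group SD of log2 CPM was smallest for Epha4, at 0.09, and largest for Epha8, at 0.54, while the median over all genes tested was 0.18. Epha8 varied more than 87.0% of the genes tested, and its highest library was 2.36 times its lowest. That of Epha6 was 0.24.

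Levels were compared between genes only per kb of transcript, with lengths from GENCODE M21, an annotation of GRCm38. Ephb6 and Epha4 had the highest levels, at 37.4 ± 5.20 and 33.1 ± 3.30 CPM per kb (SD, n = 6 libraries of both lineages), followed by Epha5 at 26.1 ± 2.28. The ranges over libraries of Ephb6 and Epha4 overlapped, as did those of Epha4 and Epha5. A gap followed, with Epha10 at 10.6 ± 1.08, Epha7 at 8.59 ± 1.04 and Ephb1 at 8.05 ± 0.90 CPM per kb, whose neighbouring ranges overlapped. Among these 10, Ephb2 at 4.94 ± 0.48 and Epha6 at 3.88 ± 1.55 came below a second gap. Then came Epha8 at 2.03 ± 0.65 and Epha3 at 1.74 ± 0.21 CPM per kb, each of these genes overlapping its neighbour. Ephb3, which is not among the 10, was at 7.80 ± 1.58 CPM per kb. Its range overlapped those of Ephb1 and Ephb2. Epha6 was at 2.54 ± 0.46 CPM per kb with saline and 5.22 ± 0.66 with methylphenidate (SD, n = 3 per group). Ephb2 was at 5.24 ± 0.46 and 4.65 ± 0.33. By these means Epha6 was below Ephb2 in the saline and above it in the other lineage. In methylphenidate replicate 1, however, Epha6 was below Ephb2, at 4.46 and 4.73 CPM per kb. Per kb of coding sequence 4 of the 10 kept their place, and Epha4 came first at 70.8 CPM per kb against 46.3 for Ephb6. On that scale Epha6 was below Ephb2 in both lineages, at 2.95 against 8.49 CPM per kb with saline and 6.05 against 7.55 with methylphenidate.

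Summed over members per kb, the 7 EphA genes made up 61.3, 61.2 and 61.2% of the level of the 10 receptors in saline replicates 1 to 3. In methylphenidate replicates 1 to 3 the share was 63.8, 64.6 and 66.8%, above every saline library. The EphA sums themselves overlapped, at 81.7, 91.5 and 83.6 CPM per kb with saline and 84.5, 90.3 and 84.8 with methylphenidate. The sums of the 3 EphB genes were 51.5, 58.1 and 53.1 CPM per kb with saline. With methylphenidate they were lower without overlap, at 47.9, 49.6 and 42.2 CPM per kb. The share of Epha6 was 2.14, 1.85 and 1.47% with saline and 3.37, 3.95 and 4.45% with methylphenidate. The share of Ephb6 was 27.8, 30.9 and 28.5% with saline and 26.4, 26.3 and 23.9% with methylphenidate. These shares and sums rest on the same values as the fold changes above and carry no test.

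**Figure D2:**
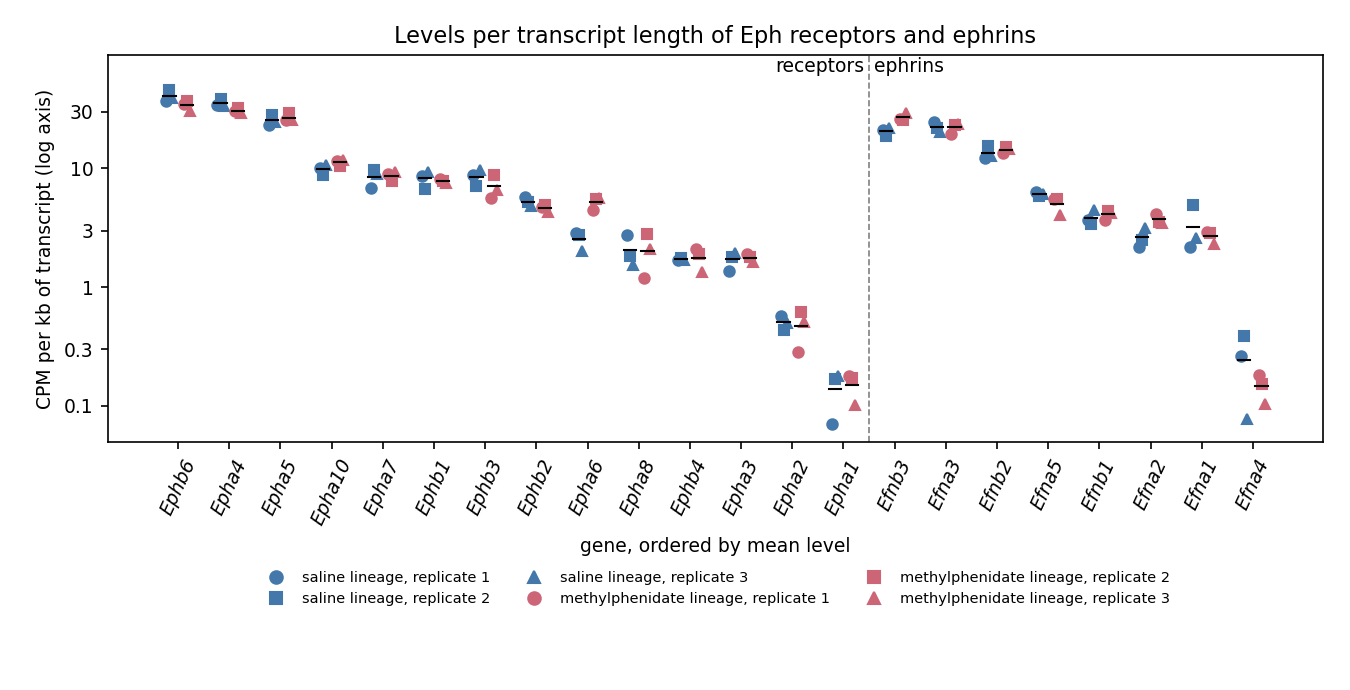
Level per kb of transcript (CPM per kb, log axis) of 14 Eph receptors and 8 ephrins in the 6 libraries, ordered by mean within receptors and within ephrins, with lines for the mean of each lineage. Ephb6, Epha4 and Epha5 are the highest receptors at 26.1 to 37.4 CPM per kb on average, and Epha6 is the gene whose lineage means are farthest apart among the receptors.

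Outside the rule lay 4 further receptors of the family, and edgeR called 0 of them, with 0 at an unadjusted p under 0.05. Ephb3, an EphB receptor, had 36.8, 29.6 and 40.8 CPM in the saline lineage and 23.7, 37.2 and 27.6 CPM in the methylphenidate lineage, which overlapped. Its log2 fold change was -0.28 ± 0.17 SE (adjusted p = 0.769 in edgeR). Ephb4, a receptor of venous endothelium, had a log2 fold change of 0.05 ± 0.19 SE (adjusted p = 0.976 in edgeR). Epha2 and Epha1, best known from epithelia, had 27 to 69 and 6 to 16 counts per library. Their lineages overlapped too.

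The ligands were not part of the rule, so their tests are given. The ligand list and the lists below were still chosen with earlier results of these data known. Of 8 ephrin genes, 7 passed the filter on low counts and edgeR called 0, with 2 at an unadjusted p under 0.05, both higher. DESeq2 called 1, Efnb3. Over all genes tested these shares were 7.51% at the unadjusted p and 0.650% in DESeq2. Efna4 had 3 to 16 counts per library and was not tested.

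Efnb3, a transmembrane ligand that acts at the spinal midline and in cortical synapses, had 67.5, 60.0 and 70.4 CPM in saline replicates 1 to 3 and 83.7, 81.3 and 93.9 CPM in methylphenidate replicates 1 to 3. Every methylphenidate library was above every saline library. The means were 66.0 ± 5.39 and 86.3 ± 6.68 CPM (SD, n = 3 per group), with a log2 fold change of 0.39 ± 0.09 SE (adjusted p = 0.233 in edgeR and an adjusted p in DESeq2 of 0.0218), so that the call depended on the tool. Per kb of transcript Efnb3 and Efna3 had the highest levels of the ephrins. Their means were 20.7 ± 1.69 and 22.3 ± 2.08 CPM per kb with saline (SD, n = 3 per group). With methylphenidate they were 27.1 ± 2.10 and 22.1 ± 2.27 CPM per kb. The order of the means differed between the lineages, but in saline replicate 3 Efnb3 was above Efna3, at 22.1 and 20.3 CPM per kb.

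Among the ephrin-A genes, Efna2 had 4.69, 5.36 and 6.75 CPM in the saline lineage and 8.79, 7.53 and 7.46 CPM in the methylphenidate lineage. The lineages did not overlap, with a log2 fold change of 0.50 ± 0.19 SE (adjusted p = 0.604 in edgeR). Efna5, a ligand that patterns sensory maps, had 25.6, 23.7 and 24.4 CPM in the saline lineage and 22.3, 22.2 and 16.4 CPM in the methylphenidate lineage. It was lower in all 3 methylphenidate libraries, with a log2 fold change of -0.27 ± 0.13 SE (adjusted p = 0.673 in edgeR). Efna3, the ephrin-A gene of the highest level and one expressed by astrocytes, had a log2 fold change of -0.01 ± 0.10 SE (adjusted p = 0.992 in edgeR), and Efna1 one of -0.25 ± 0.31 SE (adjusted p = 0.898 in edgeR). Efnb1 and Efnb2 had log2 fold changes ± SE of 0.10 ± 0.14 and 0.08 ± 0.10, and adjusted p from edgeR of 0.920 and 0.895.

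**Figure D3:**
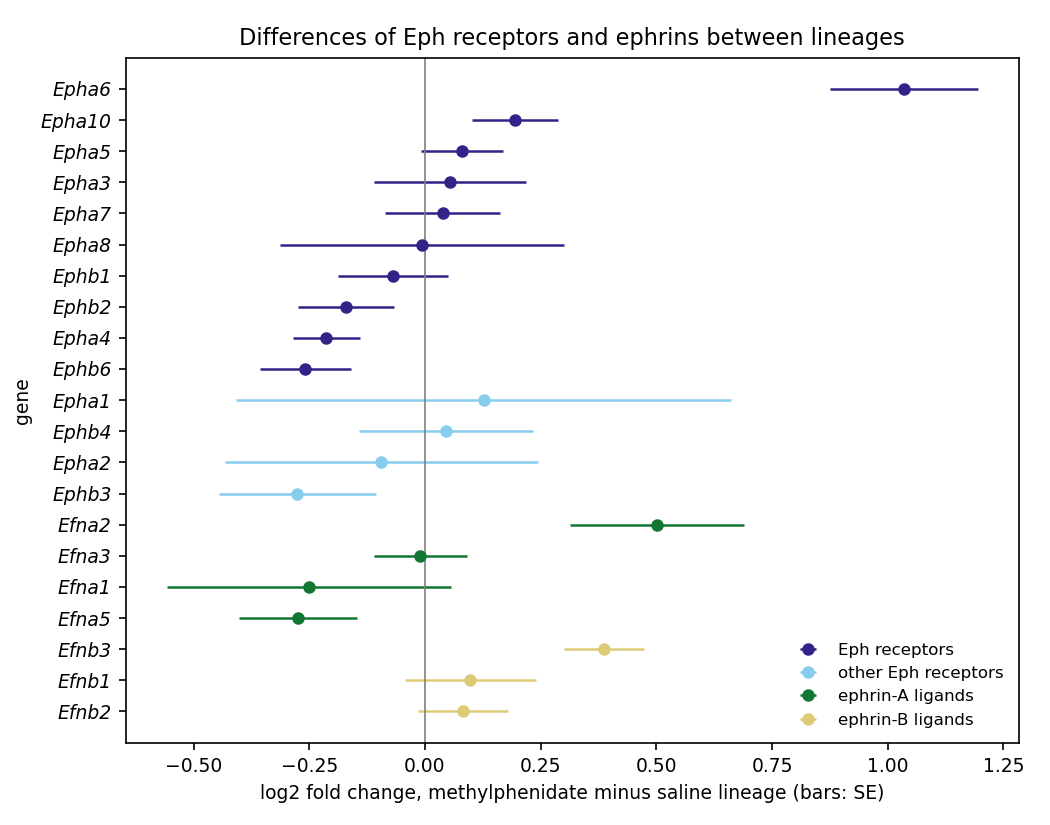
Log2 fold change, methylphenidate minus saline lineage, of the 10 receptors, the 4 other Eph receptors and the 7 ephrins tested, with bars for the SE of the edgeR fit. Epha6 lies at 1.04, while the other 9 receptors lie between -0.26 and 0.20 and the ephrins between -0.27 and 0.50.

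Partners of Eph receptors and ephrins in signalling were listed as 39 genes, and all 39 were tested. edgeR called 0 of them, with 8 at an unadjusted p under 0.05, 2 higher and 6 lower, beside 7.51% of all genes. DESeq2 called 2, Ptpro and Kalrn, beside 0.650%. The median log2 fold change was -0.02, beside 0.00 over all genes tested, with 17 above 0 and 22 below. Ptpro, a receptor phosphatase that removes phosphate from Eph receptors, had 28.4, 15.7 and 20.5 CPM in the saline lineage and 34.0, 33.3 and 41.1 CPM in the methylphenidate lineage. The lineages did not overlap, with a log2 fold change of 0.75 ± 0.19 SE (adjusted p = 0.316 in edgeR and an adjusted p in DESeq2 of 0.00877). Kalrn, an exchange factor that activates Rac in spines downstream of EphB receptors, had 816, 872 and 794 CPM in the saline lineage and 674, 734 and 636 CPM in the methylphenidate lineage. It was lower in all 3 methylphenidate libraries, with a log2 fold change of -0.28 ± 0.07 SE (adjusted p = 0.330 in edgeR and an adjusted p in DESeq2 of 0.0283).

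Rock2, a kinase that drives growth cone collapse, and Nck2, an adaptor of ephrin-B signalling, had log2 fold changes of -0.28 ± 0.08 SE (adjusted p = 0.397 in edgeR) and -0.31 ± 0.09 SE (adjusted p = 0.478 in edgeR). In both, every methylphenidate library was below every saline library. The lineages did not overlap in 9 of the 39 partner genes, 1 higher and 8 lower, beside 6.97% and 6.51% of all genes tested.

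Receptors of other guidance families were taken for comparison, as 20 genes of the semaphorin, slit and netrin pathways. edgeR called 0 of the 20, with 5 at an unadjusted p under 0.05, all higher, and DESeq2 called 1, Nrp2, beside 7.51% and 0.650% of all genes. The median log2 fold change was 0.10, with 17 above 0 and 3 below. Nrp2, a co-receptor for class 3 semaphorins, had 24.7, 22.4 and 20.9 CPM in the saline lineage and 29.0, 36.2 and 37.8 CPM in the methylphenidate lineage, without overlap. Its log2 fold change was 0.60 ± 0.12 SE (adjusted p = 0.212 in edgeR and an adjusted p in DESeq2 of 0.00592). The plexin genes Plxnc1, Plxnb1 and Plxnd1 had log2 fold changes ± SE of 0.36 ± 0.10, 0.25 ± 0.07 and 0.31 ± 0.13, and adjusted p from edgeR of 0.397, 0.457 and 0.636.

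Summed marker genes of 3 regions next to the cortex were also higher in the methylphenidate lineage, so their values stand beside those of Epha6. The 12 striatal projection neuron genes summed to 348, 286 and 249 CPM in saline replicates 1 to 3 and to 618, 344 and 826 CPM in methylphenidate replicates 1 to 3. All 11 of those tested had log2 fold changes above 0, edgeR called 0 of them with 9 at an unadjusted p under 0.05, and DESeq2 called 3. Over all genes tested 7.51% had such an unadjusted p, DESeq2 called 0.650% and 50.3% had log2 fold changes above 0. The lineages did not overlap in 6 of the 11 striatal genes, all higher, beside 6.97% of all genes tested that were higher without overlap. The mean of their log2 CPM, each gene centred on its mean over libraries, was -0.19, -0.92 and -1.05 with saline and 0.86, -0.02 and 1.32 with methylphenidate, in the order of the replicates. By this mean every methylphenidate library was above every saline library, while the sums overlapped, with methylphenidate replicate 2 at 344 CPM and saline replicate 1 at 348 CPM. Ppp1r1b, a phosphatase inhibitor of striatal neurons, was a large part of these sums, at 105 and 130.4 CPM in these libraries.

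The 12 hypothalamic and basal forebrain genes summed to 5.11, 4.46 and 4.80 CPM in the saline lineage and to 13.9, 11.1 and 36.0 CPM in the methylphenidate lineage. Of the 7 tested all had log2 fold changes above 0, edgeR called 0 with 5 at an unadjusted p under 0.05, and DESeq2 called 2, Trh and Slc5a7. Over all genes tested these shares were 50.3% above 0, 7.51% at the unadjusted p and 0.650% in DESeq2. The hypothalamic genes Hcrt and Sim1 had 0 counts in all 3 saline libraries and at most 4 in any library, so they add little to these sums. The 7 thalamic genes summed to 97.8, 101.3 and 90.5 CPM in the saline lineage and to 151.6, 110.9 and 105.8 CPM in the methylphenidate lineage, without overlap. edgeR called none of them, with 1 at an unadjusted p under 0.05 (7.51% of all genes), and DESeq2 called 0 (0.650%). The 9 hippocampal genes summed to between 152 and 216 CPM with overlapping lineages, and the 8 choroid plexus genes to 43.9, 669 and 425 CPM in the saline lineage and 509.8, 206 and 25.1 CPM in the methylphenidate lineage. Of the cell types of the cortex, the 3 oligodendrocyte precursor genes, Pdgfra, Cspg4 and C1ql1, summed to 117, 103 and 105 CPM in the saline lineage and to 126, 125 and 139.6 CPM in the methylphenidate lineage, without overlap. All 3 were higher at an unadjusted edgeR p under 0.05, beside 7.51% of all genes tested in either direction. After adjustment edgeR and DESeq2 called 0 of the 3. The part of these regions and cells in the Epha6 difference was not tested.

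**Figure D4:**
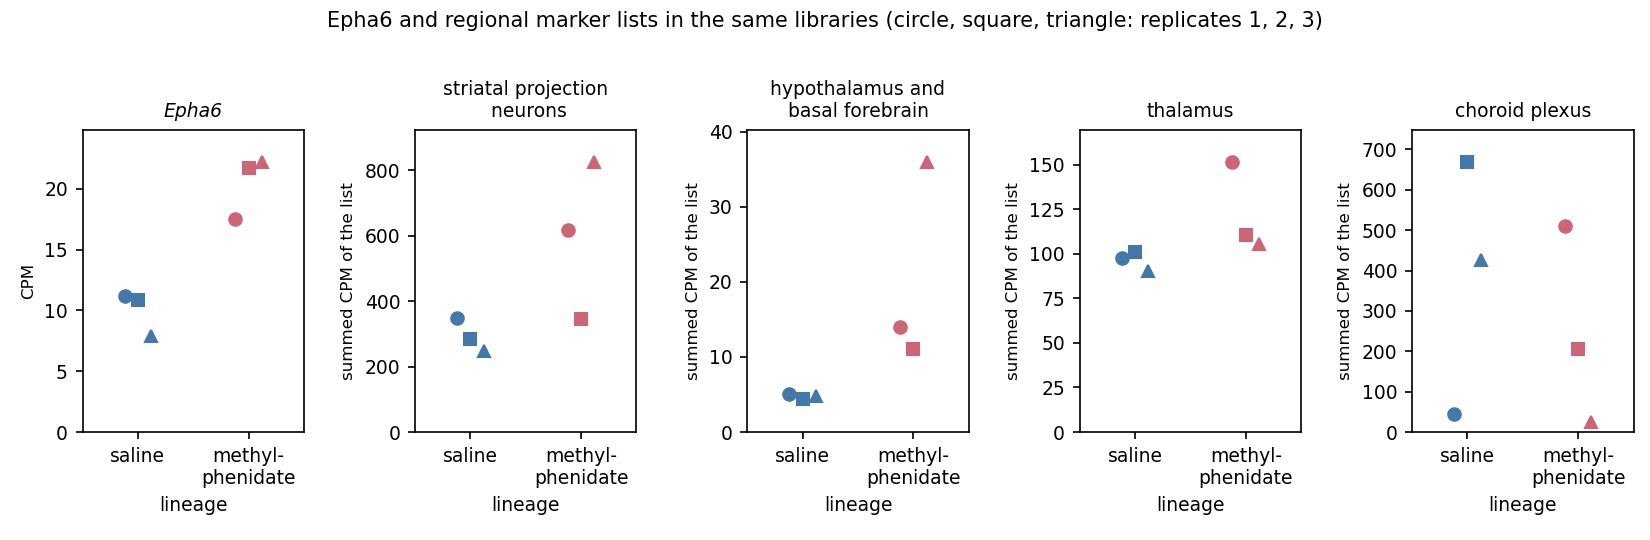
Epha6 in CPM and the summed CPM of 4 regional marker lists in the 6 libraries, with blue symbols for the saline lineage, red symbols for the methylphenidate lineage and circle, square and triangle for replicates 1, 2 and 3. Epha6 lies at 7.91 to 11.2 CPM with saline and 17.5 to 22.2 CPM with methylphenidate, and the striatal sums lie at 249 to 348 and 344 to 826 CPM.

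Genes of the cortical layers overlapped in sum. The 9 upper-layer genes summed to 848, 874 and 864 CPM in saline replicates 1 to 3. In methylphenidate replicates 1 to 3 they summed to 774, 869 and 735 CPM, and only replicate 2 lay inside the saline range. The 12 deep-layer genes summed to 387 to 435 CPM with saline and 397 to 439 CPM with methylphenidate. edgeR called 0 in either list, with 4 and 3 at an unadjusted p under 0.05 (7.51% of all genes), and DESeq2 called 2 and 1 (0.650%). Of the 4 upper-layer genes 1 was higher and 3 lower, and of the 3 deep-layer genes 2 were higher and 1 lower. The median log2 fold changes were -0.17 and -0.08, with 7 of 9 and 8 of 12 below 0. The lineages did not overlap in 4 upper-layer genes, 1 higher and 3 lower, and in 1 deep-layer gene, which was higher. Over all genes tested these shares were 6.97% higher and 6.51% lower.

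The genes whose levels followed those of Epha6 most closely were sought among 12172 tested genes with a mean of at least 5 CPM. Rows without a symbol were left out, as were Gm-number, Rik, mt- and ribosomal pseudogene (Rpl or Rps) symbols. The remaining genes were ranked by Pearson's r of log2 CPM over the 6 libraries. Closest were Ccnq (a cyclin), Col23a1 (a transmembrane collagen), Selenoo (a mitochondrial selenoprotein), Klhdc8a and Erich3. Their r with Epha6 was 0.99, 0.99, 0.99, 0.98 and 0.98, a description over 6 libraries that includes the difference between the lineages. Col23a1 had 11.1, 10.4 and 9.52 CPM in the saline lineage and 16.1, 17.7 and 18.9 CPM in the methylphenidate lineage, in the same order of libraries as Epha6. Among the other receptors r with Epha6 ran from -0.69 in Epha4 to 0.53 in Epha10. With each lineage centred on its own mean the order was another, with r of 0.38 in Epha4, -0.57 in Epha10 and 0.80 in Epha8, the highest of the receptors.

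Genes that overlap the receptors could share reads with them, and the sources used here do not give the strand setting of the counting. In GENCODE M21, Gm9017 lies opposite Epha6 and had 0, 8 and 4 counts with saline and 10, 16 and 6 with methylphenidate, few beside the 191 to 618 counts of Epha6. Hmgn2-ps1, opposite Epha5, had 57 to 72 counts per library beside at least 2808 of Epha5. Epha3, Epha4, Epha8, Ephb2 and Ephb6 had no overlapping gene with counts in the table.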

How the data were processed

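Poly(A) RNA of cerebral cortex was made into directional libraries, per the labels' protocols. Tools listed in the submitters' processing notes, without roles, are HISAT2 2.2.1, StringTie 2.2.1, fastp 0.23.4 and bcl2fastq 2.19, with build GRCm39. The authors deposited raw counts for each Ensembl gene. The sources used here do not give the annotation release or the way reads were assigned.

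The receptors, gene lists and tests were chosen with earlier results of these data known. Counts were fitted in R 4.3.3 with edgeR 4.0.16 (filterByExpr, TMM, quasi-likelihood F test of lineage with no covariate, two-sided, Benjamini-Hochberg adjustment over 18327 genes, threshold 0.05). Log2 CPM used a prior count of 2, and the SE of a log2 fold change is its absolute value over the root of F. Total counts per library, 23896752 to 28120640, set the counting precision. Since litters and sires are not labelled, the p-values reflect spread between these libraries alone. Libraries of a group differed by 13.0 to 19.9 in chi-square over its degrees of freedom, more than sampling noise, so none was a duplicate.

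Named were the 10 receptors, the other Eph receptors, the ephrins, and up to 4 genes of smallest p in the partner and guidance lists. The 5 genes most like Epha6, after the exclusion by symbol, were named as well. In the lists of excitatory and inhibitory neurons, astrocytes, oligodendrocytes, microglia and endothelium, edgeR and DESeq2 each called 0 genes. At an unadjusted edgeR p under 0.05 there were 3, 2, 0, 0, 0 and 2, beside 7.51% of all genes tested. The 3 excitatory genes were lower, and that list had a median log2 fold change of -0.17, with 5 of 7 below 0. The inhibitory and endothelial lists each had 1 higher and 1 lower. In the hippocampal list edgeR called 0 (1 unadjusted, higher) and DESeq2 1 (Wfs1), beside 0.650%. Alternatives were other scalings and filters, DESeq2 1.42.0, coding length, a block on replicate numbers and dropping each library in turn. Lengths and overlaps came from GENCODE M21 (GRCm38) and promoters from RefSeq (GRCm38.p6), a build other than that of the counts.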

Additional observations from a re-analysis of the deposited data

How the results depend on the processing

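The 130 log2 fold changes of the 10 receptors under 13 alternatives each moved by less than the SD within groups. Dropping 1 of 3 libraries can hardly move a group mean by that much, so no steadiness is read from this. Epha8 stayed within that limit though it ran from -0.31 to 0.27. Epha4, Epha5, Epha6, Epha10, Ephb2 and Ephb6 kept their sign under all 13 alternatives, while Epha3, Epha7, Epha8 and Ephb1, which lie near 0, did not. Over all genes the edgeR count past the threshold, 5, was 10 with total-count scaling and 3 with no filter. It was 3 without saline replicate 2, 8 without saline replicate 3, and 26, 12 and 2 without methylphenidate replicates 1, 2 and 3, a range of 2 to 26. DESeq2 called 149 genes, among them 1 of the 10 receptors (Epha6), 1 ephrin (Efnb3), 2 signalling partners and 1 other guidance receptor, where edgeR called 0 of each, also without any one library. Since the receptors were picked with this contrast known, nothing is read from the call of Epha6. The median log2 fold change over the receptors ran from -0.054, without saline replicate 1, to 0.043, without saline replicate 3. With coding length in place of transcript length 4 of the 10 receptors kept their place in the order. With the replicate block, 2 genes passed over all genes and 0 receptors. Deviations from the lineage mean had r of -0.04, 0.09 and -0.02 between same-numbered libraries and -0.11 to 0.13 between differently numbered ones. With 3 libraries per group this cannot decide whether the numbers pair the samples.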
